A study of Mus musculus with 15 samples.

Results

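The collagen genes of mouse skin were followed through 4 groups of bone marrow recipients. The members are all genes of the deposited table whose identifier matched a mouse symbol of the form Col, number, a, number, with 10 or more counts summed over the 15 libraries. This rule took 44 of 56059 genes, and no collagen symbol lay below the sum. The members with the fewest counts over all libraries were Col9a1 with 16, Col19a1 with 34 and Col10a1 with 43. These 3 did not pass the filter on low counts, which left 41 collagens for testing.

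All mice had received bone marrow, and 3 of the 4 groups were allogeneic recipients, the model of sclerodermatous graft-versus-host disease in this study. Syngeneic recipients (n = 4) and allogeneic recipients (n = 3) were given the vehicle, 0.4% methylcellulose. The Wnt-C59 group, allogeneic as well, received 5 mg/kg of that compound (n = 4), an inhibitor of porcupine, which makes Wnt ligands ready for secretion. The combination group (n = 4), again allogeneic, received 5 mg/kg Wnt-C59 with 150 mg/kg belumosudil, an inhibitor of the kinase ROCK2. Dosing was daily and oral, ran between day 21 and day 49 after transplantation, and was followed by sampling of skin. Strain, sex and age of the mice are not given in the sources used here. The columns of the combination group carry a 2-letter code beginning with R that no label explains, and they were matched by elimination. The series title names 3 partner drugs of porcupine inhibition, of which ruxolitinib also begins with R, so that every result for the combination rests on this match. Libraries of treated mice are called by their column numbers (Wnt-C59 libraries 1, 2, 4 and 5, combination libraries 2, 3, 4 and 5).

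Collagens are matrix proteins whose chains wind around each other into a rope-like helix. Fibrillar collagens give the dermis its tensile strength, type IV collagens form the sheets of basement membranes, and smaller collagens decorate fibrils, form microfilaments or anchor the epidermis to the dermis. In sclerodermatous disease the dermis thickens with deposited collagen, which fibroblasts make. The values here are of mRNA, and deposited protein was not measured.

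Library totals ran from 16.26 to 28.78 M estimated counts. Libraries with vehicle and with treatment differed in ways that no label names. Malat1, a nuclear RNA, lay at 1071 to 3501 CPM (counts per M of the scaled library) in the 7 vehicle libraries and at 65.0 to 136 CPM in the 8 treated ones, and 31.1% to 34.4% of non-zero values carried a fraction against 44.8% to 60.6%. No label gives a batch, so a batch with this split and the treatment cannot be told apart. Among the fibroblast markers, Dcn, the gene of the fibril-binding proteoglycan decorin, was at 225 CPM or more in each library. Markers of growing hair follicles summed to 5160 to 15820 CPM in syngeneic skin, to 9.96 to 21.4 CPM in allogeneic skin and to 31.6 to 38.2 CPM with Wnt-C59. In combination libraries 4 and 5 the hair keratin Krt71 was at 15140 and 2002 CPM, above and just below its range in syngeneic skin (2365 to 6651 CPM), and below 1 CPM in combination libraries 2 and 3. The labels do not say that the replicates were separate mice, and the p-values measure the spread between these libraries.

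Collagen mRNA took a smaller part of the allogeneic libraries. Syngeneic libraries 1 to 4 held 1.02%, 0.717%, 1.42% and 0.820% of their counts in the 44 collagens, and allogeneic libraries 1 to 3 held 0.465%, 0.275% and 0.382%. Wnt-C59 libraries 1, 2, 4 and 5 held 0.726%, 0.819%, 0.705% and 0.653%, and combination libraries 2 to 5 held 0.6425%, 0.580%, 0.753% and 1.11%. Each allogeneic vehicle library lay below every other library, and the treated libraries overlapped with the syngeneic ones. As group means the shares were 0.994% ± 0.311 (SD, n = 4), 0.374% ± 0.0953 (SD, n = 3), 0.726% ± 0.0697 (SD, n = 4) and 0.772% ± 0.238 (SD, n = 4) in the order syngeneic, allogeneic, Wnt-C59 and combination. In skin as a whole tissue, fewer cells that express a gene and less of its RNA per cell cannot be told apart.

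**Figure D1:**
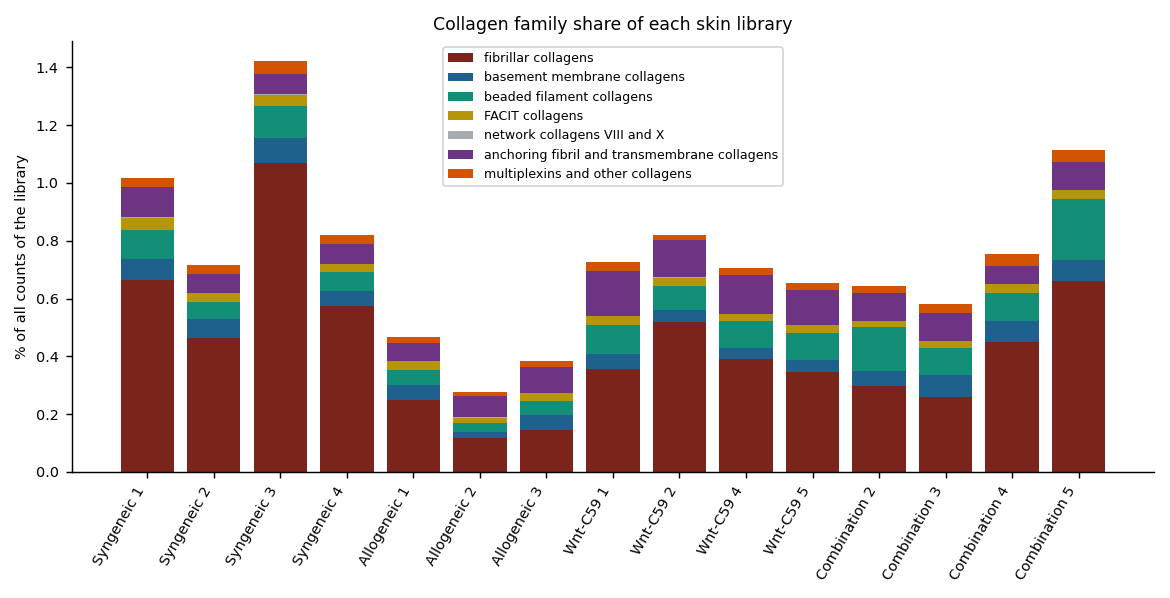
Share of all estimated counts (y axis, %) that the 44 collagens held in each of the 15 skin libraries (x axis), stacked by collagen class. The 3 allogeneic vehicle libraries have the lowest bars (0.275% to 0.465%), and most of the difference from the syngeneic bars lies in the fibrillar collagens.

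The lower share came mostly from types I and III, the main fibrillar collagens of the dermis. Col1a1, Col1a2 and Col3a1 together gave 63.2% ± 5.55 of collagen counts in syngeneic skin and 37.85% ± 7.32 in allogeneic skin. In the treated groups they gave 51.75% ± 6.62 with Wnt-C59 and 48.0% ± 8.38 with the combination. Per length (CPM per kb of the longest transcript), Col1a1 (357), Col1a2 (333) and Col3a1 (326) were the leading collagens of syngeneic skin, with differences among them well within their spread, and Col17a1 of the epidermis followed at 91.3. In allogeneic skin the order per length was Col3a1 (117), Col17a1 (104.5), Col1a2 (79.1) and Col1a1 (66.0). In both treated groups Col1a1 was first again (252 with Wnt-C59 and 257 with the combination), again with Col1a2, Col3a1 and Col17a1 next to it in some order.

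Allogeneic skin was first compared with syngeneic skin, both with vehicle, for the change that goes with the foreign graft. Of the 41 collagens tested, 21 fell and 3 rose (51.2% and 7.32%), where over all 18651 genes 15.1% fell and 14.6% rose (29.8% in either direction). The median log2 fold change of the collagens was −0.81, against −0.07 over all genes. All classes but the transmembrane collagens had members that fell. The 3 collagens that rose were Col8a1, Col28a1 and Col6a5. Of the 24 calls, 10 were kept in each of 15 other fits (other size factors, tests, filters, trends, an adipocyte covariate and each library left out), and all 10 are falls (Col1a1, Col1a2, Col3a1, Col5a3, Col8a2, Col11a1, Col11a2, Col4a4, Col15a1 and Col16a1). Leaving out allogeneic library 3 lowered the count from 24 to 14, and 12 of the 24 calls were lost without some single library. With the adipocyte marker score as a covariate, which was lower in every allogeneic than in every syngeneic library, 10 fell and 1 rose. Hair follicle markers separated all syngeneic from all allogeneic libraries, and with their score as a covariate, added after the data were seen, 2 collagens fell (Col8a2 and Col23a1) and none rose. The score was 7.75 to 9.40 in syngeneic and −1.41 to −0.72 in allogeneic libraries. This fit thus tells the group from the score only through the slope of the score within groups. Whether that slope holds between groups was not tested. Within groups the score differed most in the combination, at 10.07 and 7.58 in libraries 4 and 5 and at −0.40 and 0.07 in libraries 2 and 3.

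Wnt-C59 was compared with allogeneic vehicle skin for the effect of porcupine inhibition. Here 11 collagens rose and 5 fell (26.8% and 12.2%), against 24.6% up and 26.2% down over all genes (50.8% in either direction). The share that rose is thus close to that of all genes, and the median log2 fold change was 0.47 against 0.00. With the combination, 17 collagens rose and 8 fell (41.5% and 19.5%), against 27.1% up and 27.4% down over all genes (54.5% in either direction), with a median of 0.78 against 0.01. Without combination libraries 4 and 5, which held hair keratins, 11 rose and 7 fell. Of the calls, 1 of 16 with Wnt-C59 and 11 of 25 with the combination were lost without some single library, and 2 and 6 were kept in each of 15 other fits (Col8a1 and Col8a2 in both, with Col6a1, Col6a2, Col15a1 and Col24a1 in the combination). Among these fits is that with the adipocyte covariate, whose score separated the groups compared. With Wnt-C59, the calls of Col6a1, Col6a2, Col24a1, Col4a6, Col25a1 and Col28a1 were lost in that fit alone. With the combination this held for Col28a1. Both comparisons use the same 3 allogeneic libraries and share their errors.

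**Figure D2:**
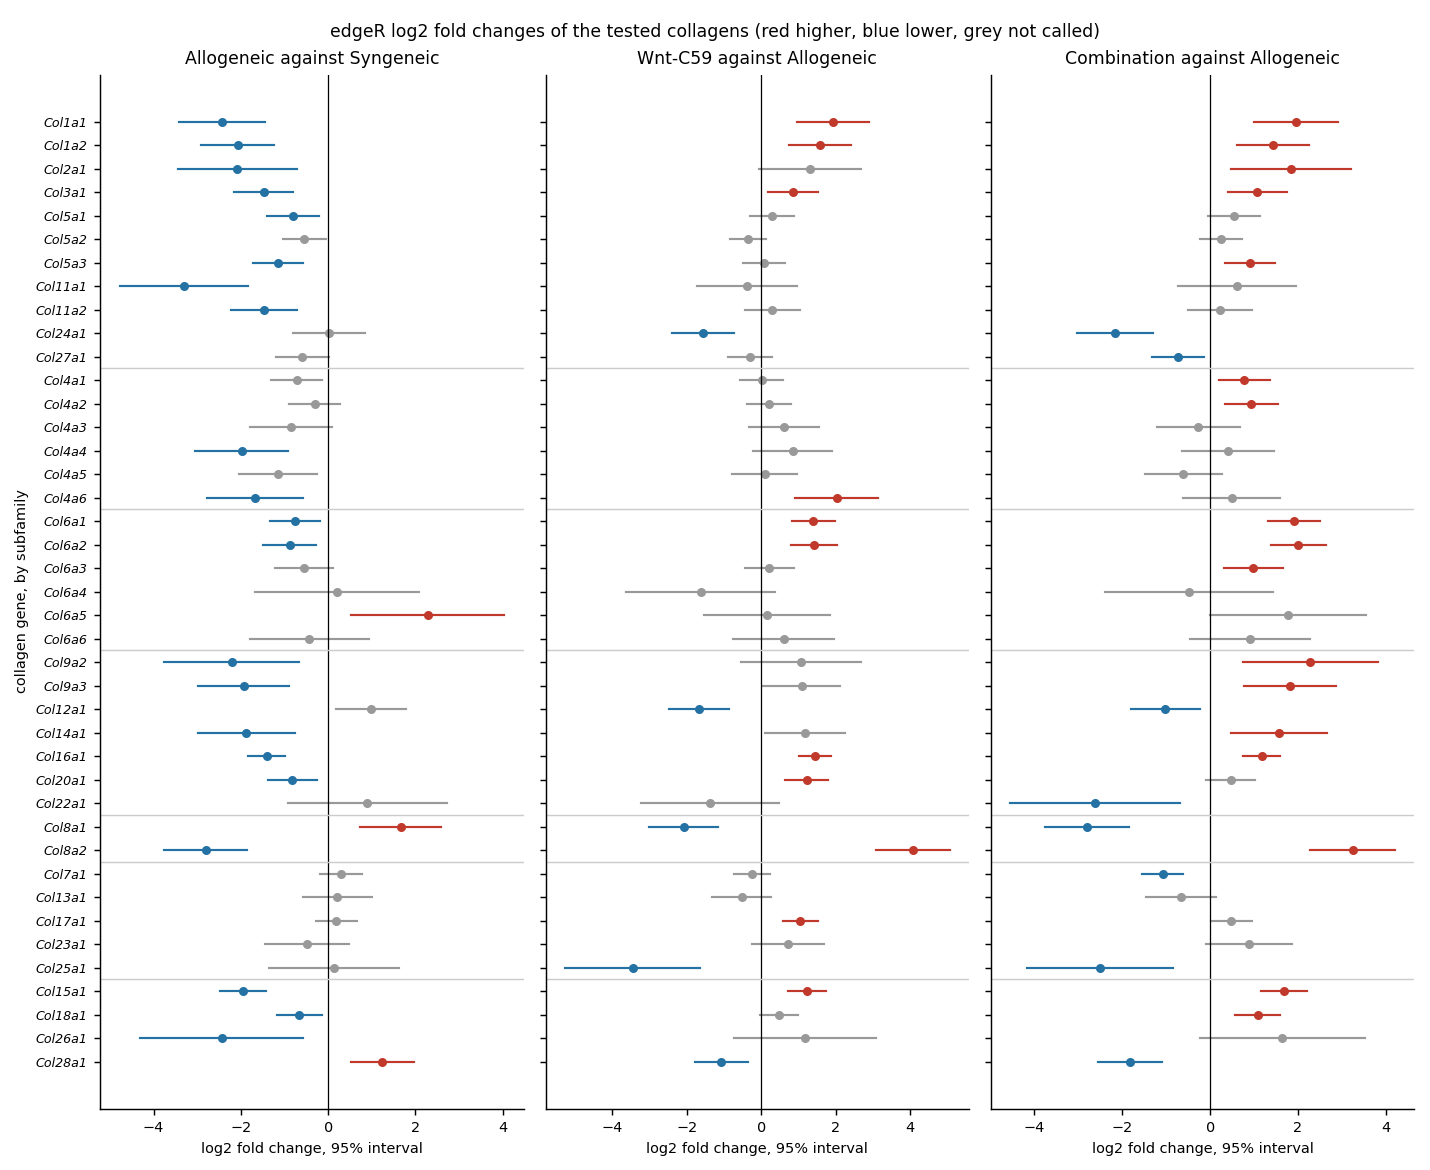
Log2 fold change (x axis) of each of the 41 tested collagens (y axis, grouped by class with grey lines between) in allogeneic against syngeneic, Wnt-C59 against allogeneic and combination against allogeneic skin. Points are edgeR estimates, bars are 95% intervals, and color gives the call at adjusted p under 0.05 (21 blue and 3 red in the first panel, 5 and 11 in the second, 8 and 17 in the third).

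Treated libraries also differed from allogeneic vehicle libraries by the base composition of transcripts. Over all genes, the log2 fold change followed transcript GC content with a Spearman rho of 0.50 for Wnt-C59 and 0.54 for the combination, and of −0.10 for allogeneic against syngeneic skin (a correlation over genes of the same libraries, as a description). The tested collagens are GC-rich, with a median of 55.7% against 49.7% over all genes (range 45.9% to 62.9%), and long, with a median of 6.12 kb against 3.05 kb. At the GC content of Col1a1 the trend over all genes amounted to 0.82 for Wnt-C59 and 0.90 for the combination on the log2 scale, and at that of Col3a1 to 0.31 and 0.36. With the GC trend removed from each library, 4 collagens rose and 11 fell with Wnt-C59, and 5 rose and 9 fell with the combination. With a trend on transcript length removed in its place, 19 rose and 4 fell with Wnt-C59, and 25 rose and 3 fell with the combination. With the adipocyte score as a covariate, 2 rose and 1 fell with Wnt-C59, and 5 rose and 2 fell with the combination. That score was lower in every allogeneic than in every treated library. This fit thus tells the score from the treatment only through the slope of the score within groups. Whether that slope holds between groups was not tested. The counts of allogeneic against syngeneic skin moved less (3 up and 15 down without the GC trend, 4 up and 18 down without the length trend). The split of rises and falls among the collagens in treated skin therefore depended on the handling of GC content, and its part in the results of single collagens was not tested beyond these fits. Shares over all genes are not given for these fits, so their counts cannot be set against those of all genes.

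**Figure D3:**
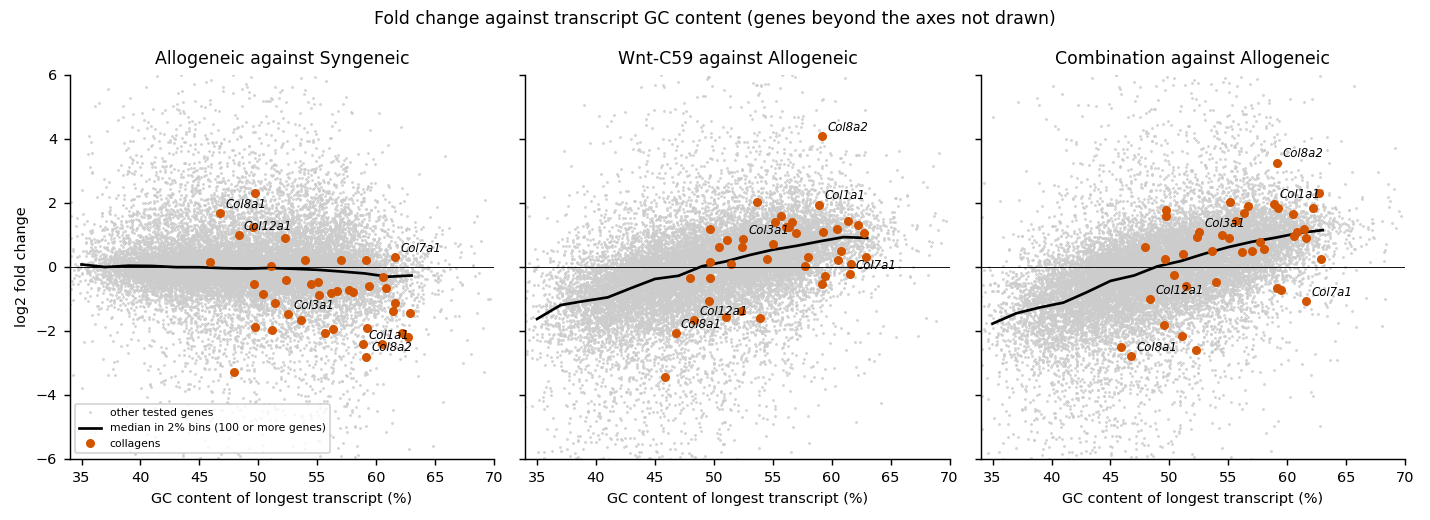
Log2 fold change (y axis) against GC content of the longest transcript (x axis, %) for the tested genes with a known GC content (grey) and the 41 collagens (orange), with the median in bins of GC content (black line). The line is nearly flat in allogeneic against syngeneic skin and climbs with GC content in both comparisons of treated skin, in which most collagens lie on the GC-rich side.

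Fibrillar collagens build the cable-like fibrils of the dermis. In allogeneic skin 8 of the 11 tested fell and none rose, and Col5a2, Col24a1 and Col27a1 did not pass the test. Col1a1 (ENSMUSG00000001506.11), the α1 chain of type I collagen, was at 1731, 1269, 3857 and 1603 CPM in the 4 syngeneic libraries and at 538, 304 and 333 CPM in the 3 allogeneic ones. The groups did not overlap, and syngeneic library 3 stood high. Col1a1 fell by 2.43 on the log2 scale (SE 0.46, adjusted p = 0.0013). Col1a2 (ENSMUSG00000029661.17), the α2 chain of the same protein, was at 1702, 1157, 2854 and 1416 CPM against 554, 334 and 382 CPM, and fell by 2.07 (SE 0.40, adjusted p = 0.0014). Col3a1 (ENSMUSG00000026043.19), whose type III fibrils run beside type I in skin, was at 1727, 1298, 2505 and 1719 CPM against 1014, 435 and 499 CPM, and fell by 1.48 (SE 0.32, adjusted p = 0.003). For all 3 the highest allogeneic library was library 1, still below the lowest syngeneic one. With the hair follicle score as a covariate, which separates the groups compared, the estimates were −1.26 for Col1a1 (adjusted p = 0.35), −1.27 for Col1a2 (adjusted p = 0.30) and −0.75 for Col3a1 (adjusted p = 0.46).

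The same 3 genes rose in both treated groups against allogeneic vehicle skin. Col1a1 was at 1144, 2025, 1725 and 1076 CPM with Wnt-C59 and at 1031, 860, 1708 and 2492 CPM with the combination. All 8 treated libraries were above the 3 allogeneic ones. The rise of Col1a1 was 1.93 with Wnt-C59 (SE 0.45, adjusted p = 0.0026) and 1.96 with the combination (SE 0.45, adjusted p = 0.0021). Col1a2 was at 885, 1937, 1334 and 878 CPM and at 932, 694, 1219 and 1692 CPM, with rises of 1.57 (SE 0.39, adjusted p = 0.0037) and 1.42 (SE 0.39, adjusted p = 0.0061). Here too the treated libraries did not overlap with the allogeneic ones. Col3a1 was at 1172, 1130, 1079 and 1302 CPM with Wnt-C59, a rise of 0.85 (SE 0.31, adjusted p = 0.033). With the combination Col3a1 was at 1038, 992, 1666 and 1759 CPM, a rise of 1.07 (SE 0.31, adjusted p = 0.0096), and allogeneic library 1 (1014 CPM) lay above combination library 3.

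The calls of type I and III in treated skin were not kept in every fit. With the GC trend removed, the rises with Wnt-C59 were 1.07 for Col1a1 (adjusted p = 0.058), 0.97 for Col1a2 (adjusted p = 0.052) and 0.53 for Col3a1 (adjusted p = 0.22). For the combination they were 1.09 (adjusted p = 0.051), 0.80 (adjusted p = 0.098) and 0.72 (adjusted p = 0.089). Without combination libraries 4 and 5, those with hair keratins, Col1a1 rose by 1.28 (adjusted p = 0.032), and the estimates of Col1a2 (0.95, adjusted p = 0.079) and Col3a1 (0.65, adjusted p = 0.15) did not pass. Col3a1 also lost its call with Wnt-C59 when allogeneic library 2 (0.62, adjusted p = 0.16) or 3 (0.67, adjusted p = 0.16) was left out, and likewise for library 1, 2 or 5 of the Wnt-C59 group (0.79 to 0.87). It lost its call with the combination without allogeneic library 2 (0.87, adjusted p = 0.055) or 3 (0.92, adjusted p = 0.057).

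Marker lists of several cell types differed between the groups beside the type I and III genes. The 8 fibroblast markers summed to 838 to 1469 CPM in syngeneic, 576 to 792 CPM in allogeneic, 968 to 2788 CPM in Wnt-C59 and 1280 to 2177 CPM in combination libraries, and none was under 1 CPM throughout a group. In allogeneic against syngeneic skin 2 of the 8 fell and none rose, and 6 rose and none fell in each treated group against allogeneic skin. The 10 adipocyte markers summed to 1096 to 2320 CPM, 542 to 1147 CPM, 1449 to 4153 CPM and 3136 to 4157 CPM in the same order, so that syngeneic and allogeneic sums overlapped. Of these, 2 fell in allogeneic skin, and 9 and 10 rose in the treated groups. All 8 macrophage markers rose in allogeneic skin, from sums of 409 to 778 CPM to 3502 to 4425 CPM, and the treated sums were 1049 to 1696 CPM and 1244 to 2384 CPM. Of 7 endothelial markers 5 rose in allogeneic skin (107 to 136 CPM against 216 to 310 CPM in sum). The 8 skeletal muscle markers summed to 3453 to 6465 CPM in syngeneic, 8733 to 35010 CPM in allogeneic, 17230 to 52540 CPM in Wnt-C59 and 20.85 to 33130 CPM in combination libraries, with the lowest sum in combination library 5, and none of them passed a test. With the adipocyte score as a covariate, the 3 falls in allogeneic skin were kept (−2.41 for Col1a1, −2.02 for Col1a2 and −1.63 for Col3a1). In treated skin the same fit left no call for Col1a1 (1.90, adjusted p = 0.086, with Wnt-C59 and 1.92, adjusted p = 0.15, with the combination), Col1a2 (1.5, adjusted p = 0.12, and 1.33, adjusted p = 0.24) or Col3a1 (1.07, adjusted p = 0.20, and 1.33, adjusted p = 0.17). The score, a mean of log2 levels, was 4.66 to 6.22 in allogeneic libraries. All syngeneic (6.34 to 7.27), Wnt-C59 (6.25 to 7.90) and combination (7.58 to 8.01) libraries lay above that range. Because the score separated the groups compared, this fit tells the group from the score only through the slope of the score within groups. Whether that slope holds between groups was not tested. No conclusion is drawn from calls lost in this fit. The part of macrophages, endothelium and muscle in the collagen values was not tested.

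Col1a2 and Col3a1 have an entry in the RefSeq promoter table (build GRCm38.p6), in which 35 of the 44 collagens were matched by symbol. The 250 bases before their annotated start are shown because the genes fell and rose together. Col1a2 lies on the plus strand (chr6:4505368-4505617) and Col3a1 on the plus strand (chr1:45311288-45311537). Capitals mark matches on either strand to 4 short motifs of promoters. The first was the CCAAT box, searched by the letters in its name. The next was the core TATAAA, by which many genes set their start. The GC box, a site of Sp1-like factors, was searched with the letters GGGCGG. The last was CTTTGA, a core preferred by the TCF/LEF partners of nuclear Wnt signalling.
Col1a2: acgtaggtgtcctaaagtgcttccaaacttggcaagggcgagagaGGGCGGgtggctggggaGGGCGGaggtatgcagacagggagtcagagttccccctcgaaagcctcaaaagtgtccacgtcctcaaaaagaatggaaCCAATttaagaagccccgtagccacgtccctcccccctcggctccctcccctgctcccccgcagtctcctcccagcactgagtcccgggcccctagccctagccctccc
Col3a1: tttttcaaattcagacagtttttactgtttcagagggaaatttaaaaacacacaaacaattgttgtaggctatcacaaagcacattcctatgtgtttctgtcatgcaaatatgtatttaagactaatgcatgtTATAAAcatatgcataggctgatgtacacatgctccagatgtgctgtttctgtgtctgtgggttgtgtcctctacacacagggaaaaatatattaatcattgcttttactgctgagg
In this window Col1a2 had a CCAAT box at 109 to 105 bases before the start and GC boxes at 205 to 200 and 188 to 183 bases before it. Col3a1 had a TATA box at 117 to 112 bases before the start. Over 32851 promoters of the same length, 33.8% held CCAAT, 12.4% TATAAA, 32.7% GGGCGG and 13.8% CTTTGA on either strand. Of the 35 matched collagens, 13, 5, 21 and 9 held these letters in any of their promoter entries, in the same order. These counts are of genes and the percentages are of promoters, so they are not directly comparable. A match describes the sequence and shows no binding.

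**Figure D4:**
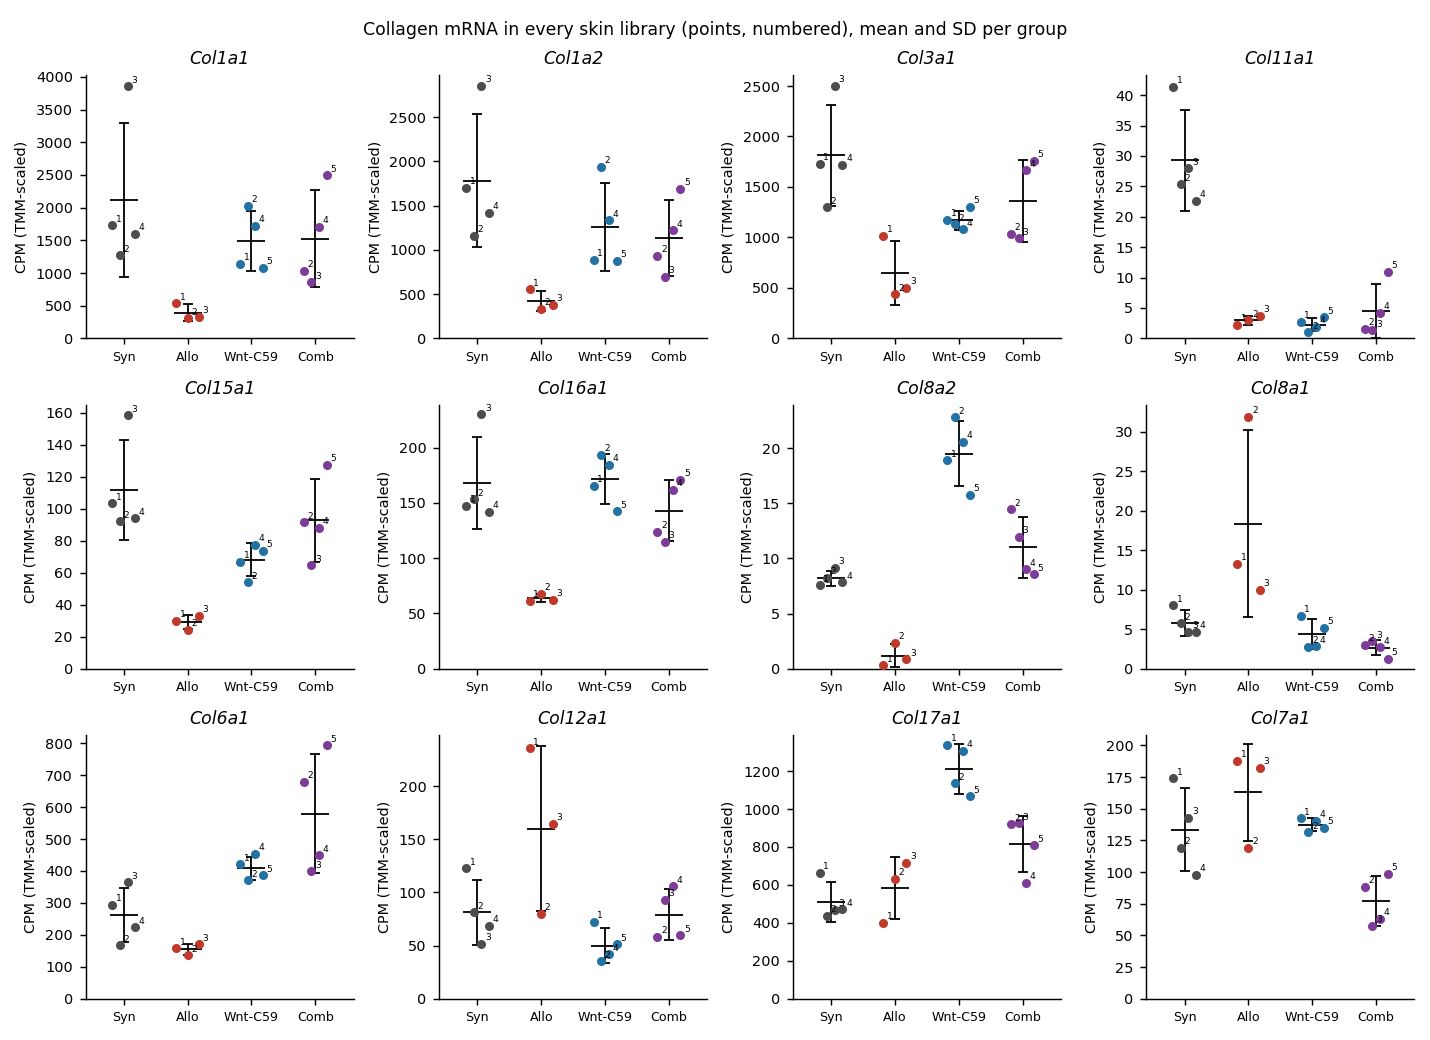
Level of 12 collagens (y axis, TMM-scaled CPM from 0) in each library (numbered points) by group (x axis), with the group mean and SD as bars. Col1a1, Col1a2, Col3a1, Col15a1, Col16a1 and Col8a2 have their lowest group mean in the 3 allogeneic libraries, Col11a1 is high in the 4 syngeneic libraries, and Col8a1 is highest in allogeneic skin.

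Minor fibrillar collagens differed in their levels in treated skin. Col11a1, a chain of type XI collagen, which sets fibril diameter, was at 41.3, 25.3, 28.0 and 22.6 CPM in syngeneic skin and at 2.19, 2.99 and 3.67 CPM in allogeneic skin. It was at 2.77, 0.992, 1.88 and 3.47 CPM with Wnt-C59 and at 1.55, 1.30, 4.18 and 11.0 CPM with the combination. Syngeneic libraries stood apart from all others, and within the combination the highest were libraries 4 and 5, those with hair keratins. Col11a1 fell by 3.31 in allogeneic skin (SE 0.68, adjusted p = 0.0027), and did not pass the test in Wnt-C59 (−0.37, 95% interval −1.72 to 0.97) or combination (0.61, −0.74 to 1.95) against allogeneic skin. Against syngeneic skin it fell by 3.68 with Wnt-C59 (SE 0.62, adjusted p = 0.00031) and by 2.70 with the combination (SE 0.59, adjusted p = 0.0016), the latter by 4.30 without combination libraries 4 and 5. Col11a2, the partner chain, fell by 1.47 in allogeneic skin (SE 0.35, adjusted p = 0.0061), from 9.91 to 15.7 CPM to 4.56 to 4.79 CPM, and was at 2.45 to 8.22 CPM in treated skin.

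Type V collagen nucleates fibrils. Col5a1 fell by 0.81 in allogeneic skin (SE 0.28, adjusted p = 0.042), from 112 to 192 CPM to 60.1 to 112 CPM, a call lost without any of 5 single libraries. Col5a2 (135 to 215 CPM against 75.6 to 157 CPM) had an estimate of −0.55 (adjusted p = 0.082). Col5a3 fell by 1.15 (SE 0.27, adjusted p = 0.0049), from 78.7 to 150 CPM to 34.3 to 59.2 CPM, and lay at 31.2 to 61.7 CPM with Wnt-C59 and 75.6 to 98.9 CPM with the combination. It rose in the combination (0.90, SE 0.26, adjusted p = 0.0097) and not in the Wnt-C59 group (0.08, 95% interval −0.48 to 0.63) against allogeneic skin, and its direct difference between the treated groups was 0.83 (0.31 to 1.34, adjusted p = 0.098). Col5a3 turned to −0.95 with Wnt-C59 and to −0.18 with the combination once the GC trend was removed. Col24a1 fell in both treated groups, from 3.16 to 5.03 CPM in allogeneic skin to 1.09 to 1.64 CPM (−1.56, SE 0.39, adjusted p = 0.0043) and 0.433 to 1.31 CPM (−2.17, SE 0.40, adjusted p = 0.00043), the former not called with the adipocyte covariate (−1.88, adjusted p = 0.068). Col2a1, the cartilage collagen, reached at most 1.055 CPM in a library, fell in allogeneic skin (−2.09, SE 0.64, adjusted p = 0.023) and rose with the combination (1.84, SE 0.64, adjusted p = 0.024). It had 2, 3 and 3 counts in the allogeneic libraries. The fall was lost without any one of 5 of the 7 vehicle libraries and the rise without allogeneic library 1 or 3 or combination library 5, and both without the GC trend (−1.82 and 0.75) and with the adipocyte covariate (−1.65 and 0.91). Of the 8 cartilage markers other than collagens, Matn1, Matn3 and Snorc were below 1 CPM in every library. Of the 3 tested, 2 fell in allogeneic skin. Against allogeneic skin 2 rose with Wnt-C59 and 3 with the combination. Acan was at 2.18 to 8.26 CPM in syngeneic and at 0.113 CPM or less in allogeneic libraries. Sox9 was at 94.9 to 101 CPM and at 14.2 to 18.3 CPM in the same order.

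Type IV collagens form the basement membrane network, Col4a1 and Col4a2 in most tissues and Col4a3 to Col4a6 in particular epithelia. In allogeneic skin 2 of 6 fell, Col4a4 and Col4a6, and none rose. Col4a4 was at 8.44, 5.10, 4.39 and 4.59 CPM in syngeneic and at 1.46, 0.419 and 2.37 CPM in allogeneic libraries, a fall of 1.98 (SE 0.50, adjusted p = 0.0084) with no overlap. Col4a6 fell by 1.68 (SE 0.51, adjusted p = 0.023), by 2.71 without allogeneic library 2 and with no call without syngeneic library 2 or allogeneic library 1 or 3, at levels below 2.1 CPM in each library. Col4a1 was at 391, 368, 474 and 280 CPM in syngeneic and at 291, 112 and 284.5 CPM in allogeneic libraries, an estimate of −0.72 that missed the threshold (adjusted p = 0.057). With Wnt-C59 it was at 251, 229, 210.5 and 230.2 CPM (0.01 against allogeneic, 95% interval −0.56 to 0.58). In the combination Col4a1 was at 311.5, 444, 423 and 395 CPM and rose by 0.78 against allogeneic skin (SE 0.27, adjusted p = 0.025), which missed the threshold on leaving out allogeneic library 2 (0.47, adjusted p = 0.087) or combination library 3 (0.72, adjusted p = 0.055). Col4a2, which shares its promoter region with Col4a1, rose by 0.94 (SE 0.28, adjusted p = 0.011), from 85.7 to 221 CPM to 267 to 399 CPM. With the GC trend removed the combination estimates of Col4a1 and Col4a2 were −0.01 and −0.06.

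Type VI collagen forms beaded microfilaments around cells, built of the Col6a1, Col6a2 and Col6a3 chains. In allogeneic skin Col6a1 (294, 168, 364 and 223 CPM in syngeneic and 158, 136 and 170 CPM in allogeneic libraries) fell by 0.76 (SE 0.27, adjusted p = 0.043), with an overlap between the groups. Col6a2 fell by 0.88 (SE 0.28, adjusted p = 0.029). The call of Col6a1 was lost without any one of 6 of the 7 vehicle libraries (estimates of −0.81 to −0.56), and that of Col6a2 without any one of 5 of them (−0.93 to −0.61). In treated skin Col6a1 went above the syngeneic level, to 421, 370, 453.5 and 386 CPM with Wnt-C59 and 679, 398, 449 and 793 CPM with the combination. These are rises of 1.40 (SE 0.27, adjusted p = 0.00072) and 1.91 (SE 0.28, adjusted p = 6.8e-05) against allogeneic skin, with no overlap. Col6a2 rose by 1.41 (SE 0.29, adjusted p = 0.001) and 2.01 (SE 0.30, adjusted p = 7e-05). Against syngeneic skin Col6a1 rose by 0.64 with Wnt-C59 (SE 0.24, adjusted p = 0.039), a call lost without any one of 6 of the 8 libraries. Col6a1 and Col6a2 rose by 1.15 (SE 0.25, adjusted p = 0.0013) and 1.13 (SE 0.26, adjusted p = 0.002) with the combination. With the GC trend removed, Col6a1 kept its rises against allogeneic skin (0.74 with Wnt-C59, adjusted p = 0.032, and 1.19 with the combination, adjusted p = 0.0023). Against syngeneic skin the same fit ended the calls, with 0.12 for Col6a1 with Wnt-C59 (adjusted p = 0.71), and 0.57 for Col6a1 (adjusted p = 0.063) and 0.63 for Col6a2 (adjusted p = 0.052) with the combination. With the adipocyte score as a covariate, the rises of both genes with Wnt-C59 against allogeneic skin also missed the threshold (1.33, adjusted p = 0.051, and 1.23, adjusted p = 0.082).

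Col6a3 differed from its partner chains with Wnt-C59, where it did not pass the test (0.22, 95% interval −0.44 to 0.88). It was at 284, 162.5, 251 and 151 CPM in syngeneic, 195, 91.9 and 146 CPM in allogeneic, 188.5, 133, 180.4 and 172 CPM in Wnt-C59 and 266, 219, 206 and 446.5 CPM in combination libraries. The combination libraries lay above all allogeneic and Wnt-C59 libraries, and the other groups overlapped. Col6a3 rose with the combination by 0.98 against allogeneic skin (SE 0.32, adjusted p = 0.017), which missed the threshold on leaving out allogeneic library 2 (0.76, adjusted p = 0.074) or combination library 5 (0.68, adjusted p = 0.059), and without the GC trend (0.45, adjusted p = 0.28). Col6a5, a chain of type VI related to Col6a3, was at 3.41, 1.99, 1.37 and 0.882 CPM in syngeneic and at 8.13, 2.87 and 16.9 CPM in allogeneic libraries, a rise of 2.29 (SE 0.81, adjusted p = 0.049) that was lost without allogeneic library 3 (1.59, adjusted p = 0.21) and without 4 others of the 7 vehicle libraries. Its treated libraries lay between 5.43 and 81.7 CPM, all above the syngeneic range, with rises against syngeneic skin of 2.43 (SE 0.78, adjusted p = 0.019) for Wnt-C59 and 4.06 (SE 0.82, adjusted p = 0.0012) for the combination. Combination library 2 held the 81.7 CPM, and without it the latter was 3.00.

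Fibril-associated (FACIT) collagens sit on the surface of fibrils. Of the 7 tested, 5 fell in allogeneic skin (Col9a2, Col9a3, Col14a1, Col16a1 and Col20a1) and none rose. Col16a1, which lies beside fibrillin microfibrils in the upper dermis, was at 147, 153.5, 230.5 and 142 CPM in syngeneic and at 61.1, 67.6 and 62.2 CPM in allogeneic libraries. It was at 166, 194, 185 and 142 CPM with Wnt-C59 and at 124, 115, 162 and 171 CPM with the combination. The allogeneic libraries were narrow and lowest, and the other 3 groups overlapped. Col16a1 fell by 1.40 (SE 0.20, adjusted p = 0.00016) and rose by 1.43 with Wnt-C59 (SE 0.20, adjusted p = 6.2e-05) and by 1.17 with the combination (SE 0.20, adjusted p = 0.00021). Once the GC trend was removed its fall was 1.09 (adjusted p = 0.00059), and its estimates in treated skin were 0.41 (adjusted p = 0.081) and 0.12 (adjusted p = 0.62). Col14a1, undulin, which regulates fibril growth, fell by 1.88 (SE 0.51, adjusted p = 0.015), from 30.0 to 80.5 CPM to 9.11 to 22.3 CPM, and rose with the combination (1.57, SE 0.51, adjusted p = 0.018), calls that both ended without allogeneic library 1 or 3 and with the adipocyte covariate (−1.15 and 0.02).

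Col12a1, a FACIT collagen of tissues under tension, had estimates opposite in sign to those of the type I genes in these 3 comparisons. It was at 123, 81.5, 51.9 and 68.6 CPM in syngeneic and at 236, 79.9 and 165 CPM in allogeneic libraries, an estimate of 0.98 that did not pass (adjusted p = 0.061). With Wnt-C59 it was at 72.5, 35.1, 41.7 and 51.1 CPM, a fall of 1.68 against allogeneic skin (SE 0.37, adjusted p = 0.0021) with no overlap. With the combination it was at 58.0, 93.3, 106 and 59.8 CPM, a fall of 1.02 (SE 0.37, adjusted p = 0.032) with overlap, lost without allogeneic library 1 (−0.63, adjusted p = 0.20) or 3 or combination library 2 or 5. It turned to 0.14 with the length trend removed and to 0.38 with the adipocyte covariate. Col12a1 has a long transcript and a GC content below the median of the collagens. Its fall with Wnt-C59 remained at 1.58 with the GC trend removed (adjusted p = 0.0043), and it was −0.69 with the length trend removed (adjusted p = 0.093) and −0.45 with the adipocyte covariate (adjusted p = 0.68).

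Type VIII collagen is a short-chain collagen of vessel walls and of sheet-like matrices, made of the Col8a1 and Col8a2 chains. Its 2 genes moved in opposite directions in each comparison of the allogeneic vehicle group. Col8a2 (ENSMUSG00000056174.9) was at 7.57, 8.26, 9.16 and 7.85 CPM in syngeneic and at 0.304, 2.33 and 0.846 CPM in allogeneic libraries. With Wnt-C59 it was at 18.9, 22.8, 20.6 and 15.8 CPM, and with the combination at 14.5, 12.0, 9.03 and 8.55 CPM. The allogeneic libraries were lowest and the Wnt-C59 libraries highest, with no overlap between these and any other group. Col8a2 fell by 2.81 in allogeneic skin (SE 0.45, adjusted p = 0.00036) and rose by 4.06 with Wnt-C59 (SE 0.47, adjusted p = 1.6e-05) and by 3.24 with the combination (SE 0.45, adjusted p = 5e-05). Without allogeneic library 2 these were −3.78, 5.06 and 4.26. Against syngeneic skin Col8a2 rose with Wnt-C59 (1.25, SE 0.36, adjusted p = 0.0094), and not with the GC trend removed (0.62, adjusted p = 0.14).

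Col8a1 (ENSMUSG00000068196.6) was at 8.03, 5.75, 4.62 and 4.67 CPM in syngeneic and at 13.2, 31.9 and 9.98 CPM in allogeneic libraries. With Wnt-C59 it was at 6.66, 2.73, 2.81 and 5.13 CPM, and with the combination at 3.03, 3.46, 2.71 and 1.27 CPM. Allogeneic libraries stood above all others. It rose by 1.67 in allogeneic skin (SE 0.43, adjusted p = 0.0097) and fell by 2.08 with Wnt-C59 (SE 0.44, adjusted p = 0.0013) and by 2.81 with the combination (SE 0.45, adjusted p = 0.00014). Without allogeneic library 2 the rise was 1.05 (adjusted p = 0.076) and the falls were 1.42 (adjusted p = 0.012) and 2.13 (adjusted p = 0.00085). Col8a1 and Col8a2 were the 2 collagens whose calls with Wnt-C59 were kept in each of 15 such other fits, which include the adipocyte covariate. Col10a1, the third short-chain collagen, had at most 11 counts in a library and was not tested.

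The promoters of both type VIII genes are shown because their mRNA moved apart. Col8a2 lies on the plus strand (chr4:126286544-126286793, GRCm38.p6) and Col8a1 on the minus strand (chr16:57754738-57754987), both printed in the direction of the gene, with the motifs named above in capitals.
Col8a2: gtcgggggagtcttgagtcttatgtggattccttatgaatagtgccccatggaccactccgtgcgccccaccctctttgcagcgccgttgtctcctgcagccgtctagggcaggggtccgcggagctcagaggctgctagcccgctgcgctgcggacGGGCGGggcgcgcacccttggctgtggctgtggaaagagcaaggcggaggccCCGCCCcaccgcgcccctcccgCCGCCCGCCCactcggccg
Col8a1: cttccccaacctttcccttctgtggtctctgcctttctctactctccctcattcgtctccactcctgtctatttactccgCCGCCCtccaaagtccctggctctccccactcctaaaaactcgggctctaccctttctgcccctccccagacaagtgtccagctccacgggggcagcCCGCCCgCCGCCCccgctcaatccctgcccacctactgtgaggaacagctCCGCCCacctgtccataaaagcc
Both windows held GC boxes and none of the other 3 motifs. In Col8a2 they began at 93, 41, 19 and 15 bases before the start, the last pair overlapping, and in Col8a1 at 170, 73, 66 and 23 bases before it. The counts of GC boxes were the same in both windows, and a link between these boxes and the mRNA levels was not tested.

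Type VII and transmembrane collagens hold the epidermis to the dermis and sit in cell membranes. None of the 5 tested passed in allogeneic against syngeneic skin. Col17a1, a hemidesmosome component of basal keratinocytes, was at 665, 436, 470.2 and 471 CPM in syngeneic, 402, 633 and 718 CPM in allogeneic, 1338, 1135, 1307 and 1066 CPM in Wnt-C59 and 919, 925, 610 and 809 CPM in combination libraries. Wnt-C59 libraries lay above all others. Col17a1 rose with Wnt-C59 by 1.05 against allogeneic skin (SE 0.23, adjusted p = 0.0015) and by 1.25 against syngeneic skin (SE 0.21, adjusted p = 0.00023). With the combination the values were 0.48 (SE 0.22, adjusted p = 0.079) and a rise of 0.68 (SE 0.20, adjusted p = 0.012). Removal of the GC trend left a rise with Wnt-C59 of 0.69 against syngeneic skin (adjusted p = 0.011) and an estimate of 0.38 against allogeneic skin (adjusted p = 0.17). For the combination against syngeneic skin it left 0.05 (adjusted p = 0.84), and the adipocyte covariate ended that call too (0.66, adjusted p = 0.079) as well as the rise with Wnt-C59 against allogeneic skin (1.03, adjusted p = 0.063). Keratinocyte markers summed to 12500 to 19870 CPM in syngeneic, 23830 to 36090 CPM in allogeneic, 31260 to 52400 CPM in Wnt-C59 and 30710 to 44680 CPM in combination libraries. The single markers did not all follow these sums. Of the 8, 2 rose and none fell in allogeneic skin. Against allogeneic skin 2 rose and 2 fell with Wnt-C59, and 1 rose and 3 fell with the combination. Against syngeneic skin 5 rose and 2 fell with Wnt-C59, and 3 rose and 3 fell with the combination.

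Col7a1, the anchoring fibril collagen, was at 174, 119, 143 and 97.6 CPM in syngeneic, 188, 119 and 182 CPM in allogeneic, 142, 131, 141 and 135 CPM in Wnt-C59 and 88.2, 57.6, 62.9 and 98.7 CPM in combination libraries. Combination libraries were lowest and overlapped with syngeneic skin alone. Col7a1 fell with the combination by 1.08 against allogeneic (SE 0.22, adjusted p = 0.00094) and by 0.79 against syngeneic skin (SE 0.21, adjusted p = 0.0052), and its estimate with Wnt-C59 was −0.25 against allogeneic skin (95% interval −0.72 to 0.23). These values depended on the trends removed. Without the length trend the combination gave −0.11 against allogeneic (adjusted p = 0.70) and 0.23 against syngeneic skin (adjusted p = 0.37), and with the adipocyte covariate −0.79 (adjusted p = 0.25) and −0.65 (adjusted p = 0.081). Against allogeneic skin Wnt-C59 gave a fall of 1.27 without the GC trend (adjusted p = 0.0011) and a rise of 0.58 without the length trend (adjusted p = 0.049). Col25a1, a transmembrane collagen, was at 0.419 to 1.15 CPM in allogeneic skin and at 0.226 CPM or less in treated skin, with falls of 3.45 (SE 0.85, adjusted p = 0.0037) and 2.51 (SE 0.78, adjusted p = 0.014). Of the 5 Wnt-C59 counts of Col25a1, 4 lay in library 1, and without it the first was −5.06. With the adipocyte covariate neither was called (−2.56, adjusted p = 0.27, and −1.44, adjusted p = 0.60). Col13a1 and Col23a1 passed in none of the 3 comparisons.

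The multiplexins Col15a1 and Col18a1 are basement membrane collagens of vessels, muscle and epithelia. Col15a1 was at 103, 92.2, 158 and 94.0 CPM in syngeneic, 29.7, 24.1 and 32.9 CPM in allogeneic, 66.9, 54.0, 77.5 and 73.7 CPM in Wnt-C59 and 91.5, 64.7, 88.0 and 127.5 CPM in combination libraries. Allogeneic libraries were lowest, and the Wnt-C59 libraries lay between them and the syngeneic ones without overlap. Col15a1 fell by 1.95 in allogeneic skin (SE 0.25, adjusted p = 7.4e-05) and rose by 1.23 with Wnt-C59 (SE 0.24, adjusted p = 0.00076) and by 1.68 with the combination (SE 0.25, adjusted p = 6.8e-05). Against syngeneic skin Col15a1 fell with Wnt-C59 (−0.72, SE 0.22, adjusted p = 0.012), and with the combination its estimate was −0.27 (95% interval −0.73 to 0.19). The rise with Wnt-C59 was 0.60 without the GC trend (adjusted p = 0.053), and the fall against syngeneic skin was −0.37 without the length trend (adjusted p = 0.21). Col18a1, the source of endostatin, fell by 0.67 in allogeneic skin (SE 0.24, adjusted p = 0.049), a call lost without any 1 of the 7 vehicle libraries, and rose by 1.09 with the combination (SE 0.24, adjusted p = 0.0017). Once the GC trend was removed, the latter was 0.07 (adjusted p = 0.83). Col28a1, a collagen with von Willebrand factor domains found around peripheral nerves, was at 6.51, 7.65, 4.21 and 9.44 CPM in syngeneic and at 14.5, 18.4 and 16.4 CPM in allogeneic libraries. It rose by 1.24 in allogeneic skin (SE 0.34, adjusted p = 0.013) and fell by 1.07 with Wnt-C59 (SE 0.34, adjusted p = 0.016) and by 1.83 with the combination (SE 0.34, adjusted p = 0.00046). With the adipocyte covariate none of these 3 was called (1.25, −1.09 and −1.85).

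The treated groups were also compared with syngeneic vehicle skin, as the reference without a foreign graft. With Wnt-C59 4 collagens rose and 11 fell, and with the combination 5 rose and 11 fell. Over all genes 26.0% rose and 27.0% fell with Wnt-C59 (53.1% in either direction), and 26.9% rose and 27.2% fell with the combination (54.1%). The shares of collagens that fell (26.8% in both) are close to those of all genes. Col1a1 did not pass in either (−0.50, 95% interval −1.34 to 0.34, and −0.47, −1.31 to 0.36), nor did Col1a2 (−0.50, −1.23 to 0.23, and −0.65, −1.39 to 0.08) or Col3a1 (−0.63, −1.23 to −0.03, adjusted p = 0.073, and −0.41, −1.01 to 0.19). Falls of more than 1 on the log2 scale in both were those of Col11a1, Col11a2, Col24a1, Col25a1, Col4a4 and Col4a5. With Wnt-C59 the call of Col4a5 was lost without any one of 6 of the 8 libraries and that of Col4a4 without any one of 5. Removal of the length trend left Col4a4 at −0.14 with Wnt-C59 and −0.44 with the combination, Col4a5 at −0.44 with Wnt-C59, Col11a2 at −0.66 and −0.64, Col24a1 at −0.84 with Wnt-C59 and Col25a1 at −1.66 with the combination, none of them called. Col11a1 kept both calls in each of 16 planned other fits. With the hair follicle score as a covariate, added after the data were seen, no collagen was called with Wnt-C59, Col11a1 included. That score was far lower in every Wnt-C59 than in every syngeneic library. With the GC trend removed 2 rose and 23 fell with Wnt-C59, and 1 rose and 18 fell with the combination. With the length trend removed 7 rose and 2 fell, and 10 rose and 3 fell. Shares over all genes are not given for the fits with a trend removed. These comparisons set treated libraries against vehicle libraries and share the 4 syngeneic libraries with the first comparison.

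The combination was compared with Wnt-C59 alone for the addition of belumosudil. No collagen passed (0 of 41), and 43 of 18651 genes did, which is 0.231% (0.102% up and 0.129% down). At an unadjusted p under 0.05 there were 15 collagens, 36.6% of those tested, against 20.9% of all genes. In DESeq2, 5 collagens passed, Col5a3 (0.84, adjusted p = 0.021) and Col4a1 (0.79, adjusted p = 0.038) as higher with the combination, and Col7a1 (−0.83, adjusted p = 0.0062), Col4a6 (−1.53, adjusted p = 0.014) and Col20a1 (−0.74, adjusted p = 0.039) as lower. The 0.231% above is the share in edgeR, and the share of all genes called in DESeq2 is not given here. In edgeR the difference was 0.03 for Col1a1 (95% interval −0.81 to 0.86), −0.15 for Col1a2 (−0.88 to 0.58) and 0.22 for Col3a1 (−0.38 to 0.82). The largest estimates with no overlap between the groups were those of Col4a6 (−1.53, −2.48 to −0.58, adjusted p = 0.099), Col7a1 (−0.84, −1.28 to −0.39, adjusted p = 0.078), Col5a3 (0.83, 0.31 to 1.34, adjusted p = 0.098) and Col8a2 (−0.82, −1.58 to −0.07, adjusted p = 0.21). Without combination libraries 4 and 5, Col4a5 alone was called (−1.56, adjusted p = 0.047).

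Ratios of chains within a library do not depend on its scaling, and they were described without a test. Type I collagen assembles from Col1a1 and Col1a2 chains in fixed proportion, and their mRNA ratio was 1.15 ± 0.143 in syngeneic, 0.918 ± 0.0499 in allogeneic, 1.21 ± 0.117 in Wnt-C59 and 1.305 ± 0.165 in combination skin (SD, n = 4, 3, 4 and 4). The 3 allogeneic values (0.872 to 0.971) lay below those of every other library. The ratio of Col3a1 to Col1a1 was 0.936 ± 0.193, 1.605 ± 0.246, 0.854 ± 0.314 and 0.960 ± 0.187 in the same order, with the allogeneic range (1.43 to 1.89) above all others. The level of Col1a1 was thus lower relative to Col3a1 in allogeneic skin than in any other library, and the 2 genes differ in GC content (58.9% and 52.5%). The ratio of Col6a3 to Col6a1 was 0.826 ± 0.164, 0.924 ± 0.285, 0.412 ± 0.0420 and 0.491 ± 0.0806, with all treated libraries (0.359 to 0.563) below all vehicle libraries (0.676 to 1.24). The ratio of Col6a1 to Col6a2, which lie close in GC content (56.7% and 55.15%), stayed between 0.928 and 1.18 in all 15 libraries. Col17a1 to Col7a1 was 3.90 ± 0.655, 3.80 ± 1.595, 8.81 ± 0.693 and 11.1 ± 3.44, again with no overlap between vehicle and treated libraries. Transcript lengths differ in both of these pairs, with Col6a3 at 10110 and Col6a1 at 4100 bases, and Col7a1 at 9250 and Col17a1 at 5588 bases. Over all genes, log2 fold changes against allogeneic skin followed length, with a Spearman rho of −0.25 for Wnt-C59 and −0.30 for the combination. The part of length in these ratios was not tested. The ratio of Col4a1 to Col4a2 was highest in syngeneic skin, 1.82 ± 0.174 against 1.35 ± 0.0896, 1.18 ± 0.0843 and 1.22 ± 0.101, with no overlap between syngeneic and any other group. Col5a1 to Col5a2 was 0.842 ± 0.0439, 0.718 ± 0.0742, 1.125 ± 0.140 and 0.865 ± 0.200. GC content differs within these pairs (57.7% and 60.6%, 58.0% and 49.65%) and between Col17a1 and Col7a1 (57.0% and 61.6%). The part of GC content in the ratios was not tested.

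**Figure D5:**
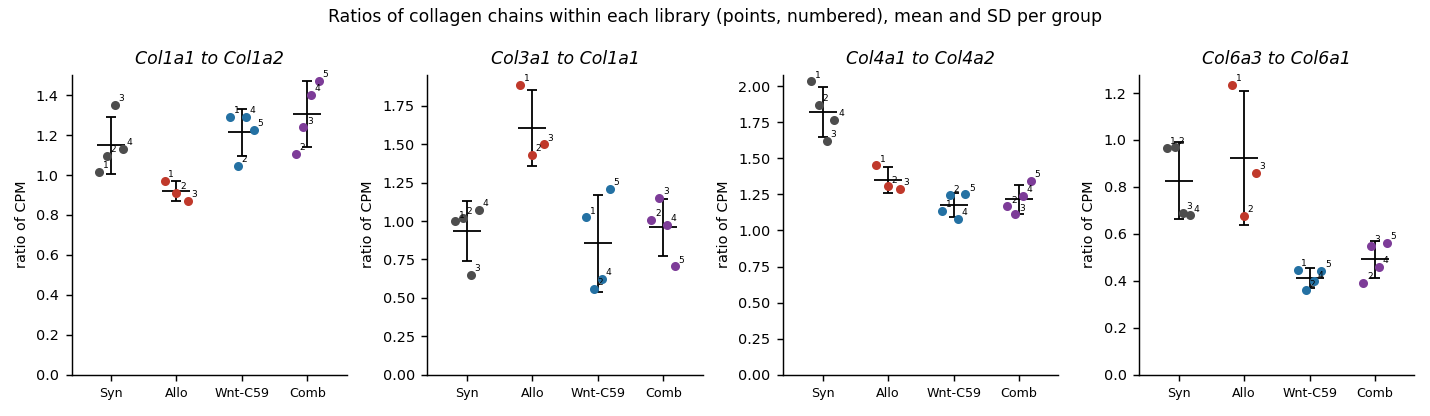
Ratio of 2 collagen chains (y axis, CPM over CPM) in each library (points) by group (x axis), with group mean and SD. The Col3a1 to Col1a1 ratio is highest in the 3 allogeneic libraries (1.43 to 1.89), and the Col6a3 to Col6a1 ratio is lower in the 8 treated libraries (0.359 to 0.563) than in the 7 vehicle libraries.

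Genes that fold, process, sense and degrade collagen were taken from 4 lists of 52 genes, 50 of them tested. Of the 20 genes that modify and fold chains, 6 rose and 4 fell in allogeneic skin (14.6% and 15.1% over all genes). Serpinh1, the collagen chaperone HSP47, fell by 1.02 (adjusted p = 0.017), from 154 to 312 CPM to 89.4 to 132 CPM, and Creb3l1, a transcription factor of collagen secretion, fell by 0.86 (adjusted p = 0.0086). P4ha3, a prolyl hydroxylase chain, rose by 5.08 (adjusted p = 0.00015), from at most 0.413 CPM to 7.48 to 8.20 CPM, and Plod1, a lysyl hydroxylase, by 1.14 (adjusted p = 0.0043). Against allogeneic skin 10 of the 20 rose and 2 fell with Wnt-C59, and 9 rose and 3 fell with the combination. Over all genes 24.6% rose and 26.2% fell with Wnt-C59, and 27.1% rose and 27.4% fell with the combination. Serpinh1 rose by 1.29 (adjusted p = 0.0023) and 2.06 (adjusted p = 7.5e-05), Creb3l1 by 1.72 (adjusted p = 3.9e-05) and 2.01 (adjusted p = 1.1e-05), and Crtap, of the prolyl 3-hydroxylation complex, by 1.17 (adjusted p = 3.3e-05) and 1.27 (adjusted p = 1.4e-05). P4ha3 fell by 2.37 and 2.18 (adjusted p = 0.0053 and 0.0075).

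Of the 12 tested genes of procollagen processing and crosslinking, 3 rose and 4 fell in allogeneic skin, 5 rose and 2 fell with Wnt-C59, and 7 rose and 2 fell with the combination. Over all genes 29.8%, 50.8% and 54.5% were called in these 3 comparisons. Lox, a lysyl oxidase that crosslinks fibrils, was at 20.3 to 32.3 CPM in syngeneic and 55.6 to 114 CPM in allogeneic libraries, a rise of 1.69 (adjusted p = 0.0011), and fell by 2.94 with Wnt-C59 (adjusted p = 1.3e-05) and 2.42 with the combination (adjusted p = 3.4e-05). Its relative Loxl1 rose by 1.62 (adjusted p = 0.00057) and 2.45 (adjusted p = 2.8e-05) in treated skin. Pcolce2, an enhancer of procollagen C-proteinase, fell by 2.66 in allogeneic skin (adjusted p = 0.0041) and rose by 3.96 (adjusted p = 0.0002) and 3.54 (adjusted p = 0.00032). Thus Pcolce2 had the directions of the type I genes, and Lox had the opposite ones.

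Of the 9 tested collagen receptors, 4 rose and 1 fell in allogeneic skin, 2 rose and 5 fell with Wnt-C59, and 3 rose and 5 fell with the combination, again beside 29.8%, 50.8% and 54.5% called over all genes. Lair1, an inhibitory receptor of leukocytes for collagen, rose by 3.62 in allogeneic skin (adjusted p = 7.5e-05), from 0.974 to 2.57 CPM to 17.1 to 30.2 CPM, and fell by 2.31 (adjusted p = 0.00061) and 2.73 (adjusted p = 0.00016). Ddr1, a collagen receptor kinase of epithelia, fell by 0.60 (adjusted p = 0.015) and rose by 1.69 (adjusted p = 8.7e-06) and 1.47 (adjusted p = 1.4e-05), and Ddr2, its relative in mesenchymal cells, rose by 0.92 (adjusted p = 0.013) and fell by 1.44 (adjusted p = 0.00036) and 1.23 (adjusted p = 0.00099). Of the 9 genes of collagen breakdown, 3 rose in allogeneic skin, all of them collagenases or gelatinases, and none fell (29.8% called over all genes). Mmp13 was at 0.186 to 1.69 CPM in syngeneic and at 397, 19.7 and 252 CPM in allogeneic libraries, a rise of 8.36 (SE 1.77, adjusted p = 0.0043), and Mmp9 rose by 5.08 (SE 0.88, adjusted p = 0.0011). Mmp8, the remaining one, had 1 count in all syngeneic libraries and 38.3, 0.359 and 7.89 CPM in the allogeneic ones, and no fold is given. With Wnt-C59 2 genes of this list rose and 3 fell, and with the combination 1 rose and 3 fell, numbers close to the 50.8% and 54.5% called over all genes. Mmp2, the gelatinase of fibroblasts, rose in both (1.02, adjusted p = 0.027, and 1.34, adjusted p = 0.0062). The 3 genes that rose in allogeneic skin had lower group means in treated skin. Mmp13 was at 223, 5.81 and 5.38 CPM in allogeneic, Wnt-C59 and combination skin. In the same order Mmp9 was at 185, 34.3 and 16.6 CPM and Mmp8 at 15.5, 0.850 and 0.277 CPM. For each of them Wnt-C59 library 1 lay above allogeneic library 2.

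Some collagen counts can hold reads of another gene. In the annotation of build GRCm38, 13 of the 44 collagens have an exon that overlaps one of another gene, by 289 bases at most (Col4a3), and Col4a1 and Col4a2 overlap by 22 bases on opposite strands. On the same strand, the longest overlaps were 141 bases for Col3a1 (with Gm47302), 79 for Col20a1 and 36 for Col7a1. The strand setting of the counting is not given in the sources used here.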

How the data were processed

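Skin RNA-seq of 15 libraries in 4 groups was analysed from a table of estimated counts per gene that the authors deposited, which holds fractions. Per the submitters' processing notes, FastQC, Trim Galore, HISAT2 and featureCounts were used with genome build GRCm39, without their order, and the step that gave fractions and the strand setting are not given in the sources used here. The test had been planned for whole counts, so values were rounded. Identifiers were matched to symbols in GENCODE M21 (GRCm38) for 91.5% of genes, which also gave GC content and longest transcripts.

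The 15 libraries were fitted together with edgeR 4.0.16 (R 4.3.3, TMM scaling, filterByExpr, robust quasi-likelihood test, group as the only term), and p-values were adjusted by Benjamini-Hochberg over the 18651 genes tested, with calls at an adjusted p under 0.05. Fold changes are log2 values, SE is the fold change over the square root of F, and intervals cover 95%. The fit was tested on simulated data first. It called 22% to 26% of simulated 2-fold changes and 77% to 84% of 4-fold changes, and 1.8% to 5.4% of its calls were false. A collagen that did not pass can thus still differ by 2-fold. Any collagen could be named. Values in every library were set for members at 20 CPM or more in a group mean and for 4 basement membrane, filament and anchoring collagens, and full statistics for types I and III and the called members with the largest changes. Members and lists were chosen with earlier results of these data known. The alternatives were other size factors, no filter, DESeq2 1.42.0, limma 3.58.1 (voom), only the groups compared, GC and length trends removed (loess), an adipocyte marker score as a covariate and each library left out. The hair follicle covariate and the fit without combination libraries 4 and 5 were chosen after seeing the data.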

Additional observations from a re-analysis of the deposited data

Results flagged for a closer look

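Among the 22 collagens whose values were set for every library, each of the 3 groups of 4 libraries was checked for a library far from the rest, and 4 of 66 were found, where chance gives about 1 in 20. Col17a1 was at 665 CPM in syngeneic library 1, against 436 to 471 CPM in the other syngeneic libraries. Col5a2 was at 173 CPM in combination library 5, against 122 to 130 CPM in the other 3. In syngeneic library 3, Col15a1 was at 158 CPM against 92.2 to 103 CPM and Col16a1 at 230 CPM against 142 to 154 CPM in the other syngeneic libraries. That library also had the highest collagen share of all 15, 1.42%. Without it, Col15a1 and Col16a1 kept their falls in allogeneic skin.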

How the results depend on the processing

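Counts of called collagens moved by over 1.5 times under these fits. The share of all genes called is given for the first edgeR fit alone, so these counts cannot be set against all genes. In allogeneic against syngeneic skin they were 11 with the adipocyte score and 2 with the hair follicle score, against 24, and 14 without allogeneic library 3 (leaving out single libraries gave 14 to 19, the other counts within 1.5 times). Against allogeneic skin, Wnt-C59 gave 3 with the adipocyte score (16 before), and the combination gave 14 without the GC trend and 7 with the adipocyte score (25 before). Between the treated groups there were 5 in DESeq2 and 1 each with the hair follicle score and without combination libraries 4 and 5. Against syngeneic skin, Wnt-C59 gave 25 without the GC trend, 9 without the length trend and 0 with the hair follicle score (15 before), and the combination gave 10 with either score (16 before). Without Col1a1, Col1a2 and Col3a1 the collagen share was 0.3555%, 0.2296%, 0.3475% and 0.3896% in syngeneic, allogeneic, Wnt-C59 and combination skin. The cause of these moves was not tested, beyond the fewer libraries in some fits.

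The sign of these log2 values turned, with a call on one side at least. Without the GC trend, Wnt-C59 against allogeneic skin gave −0.95 for Col5a3, −0.84 for Col11a2 and −0.74 for Col4a2, and the combination gave −0.18 for Col5a3, −0.93 for Col11a2, −0.01 for Col4a1 and −0.06 for Col4a2. Against syngeneic skin this fit gave −0.68 for both Col7a1 and Col16a1 with Wnt-C59 and −0.09 for Col4a2 with the combination. Without the length trend, Col7a1 was at 0.58 with Wnt-C59, and Col12a1 at 0.14 and Col27a1 at 0.02 with the combination, against allogeneic skin, and Col7a1 was at 0.23 and Col12a1 at 1.26 in the combination against syngeneic skin. The adipocyte score gave 0.38 for Col12a1 in the combination against allogeneic skin. The hair follicle score gave −0.35 for Col6a5 in allogeneic and 0.26 for Col4a5 in Wnt-C59 skin, both against syngeneic skin.

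Same-numbered syngeneic and allogeneic libraries did not deviate together (r = −0.059, −0.121 and 0.069 over 5000 genes), so the numbers were not taken as pairing. With the replicate block, in a fit of these groups alone, 13 of 39 tested collagens were called, against 17 of 39 in the same fit without the block. The treated columns carry no title numbers. Depth limits the collagens under about 1 CPM.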
